A study of Mus musculus with 14 samples.

Results

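The collagen genes are 38 of the 15803 genes named on the exon arrays of this series. They were taken as every gene symbol of the platform with the form of a collagen chain, Col, a number, the letter a and a number. They are covered by 1365 of 194293 probe sets, a probe set being a small group of probes that mostly reads 1 exon, and the level of a gene is the mean of the log2 values of its probe sets. No value of the arrays decided which genes are members. A pair of other collagen genes, Col6a6 and Col26a1, carry older symbols on the platform, so the naming rule does not take them; they differed by -0.06 and 0.03 on the log2 scale between the models (adjusted p = 0.643 and 0.874, limma).

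RNA of 14 mouse thymic lymphomas was measured, 7 tumours of strain Vav-SB and 7 of strain CD4-SB. Both are Sleeping Beauty models of T-cell acute lymphoblastic leukaemia, in which a mobile DNA element jumps in the genome of chosen cells and mutates the genes it lands in. By name, the Vav promoter is active in blood stem cells and all their descendants and the CD4 promoter in T cells from a later thymic stage, and the title of the series asks how the cell of origin shapes the selected mutations. The labels give no alleles, ages, sexes or treatments, and no normal thymus is among the samples. They do not say that each tumour came from its own animal: the first numbers of the tumour titles are 7 for the Vav-SB tumours but only 4 for the CD4-SB tumours, with replicates 1 and 2 sharing 1 number and replicates 5, 6 and 7 another. All p-values therefore measure the spread between these tumours.

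Collagens are the main proteins of the extracellular matrix. Each is built from 3 chains wound into a triple helix inside the cell, after prolyl and lysyl hydroxylases have modified the chains, and is then secreted, trimmed and crosslinked. The genes fall into classes by the structure they build: fibrils, basement membrane networks, beaded filaments, molecules that decorate fibrils, and others that cross the cell membrane. In the thymus, fibroblasts and the cells around vessels make most fibrillar and type VI collagen, while lymphocytes are not counted among the main producers.

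The DNA just before the start of 4 genes is shown because the results turn on them: Col1a2 and Col3a1 moved together from tumour to tumour, Col6a1 differed between the models, and Col11a1 was high in 3 tumours. The sequences are from RefSeq on build GRCm38.p6, read 5′ to 3′ on the strand of the gene, and end just before the first annotated base of the gene. They lie at chr6:4505368-4505617 (Col1a2, plus strand), chr1:45311288-45311537 (Col3a1, plus strand), chr10:76726045-76726294 (Col6a1, minus strand) and chr3:114030290-114030478 (Col11a1, plus strand). Capitals mark the TATA box word TATAAA, the CCAAT box word CCAAT and the GC box word GGGCGG, searched on both strands with overlaps allowed.
Col1a2: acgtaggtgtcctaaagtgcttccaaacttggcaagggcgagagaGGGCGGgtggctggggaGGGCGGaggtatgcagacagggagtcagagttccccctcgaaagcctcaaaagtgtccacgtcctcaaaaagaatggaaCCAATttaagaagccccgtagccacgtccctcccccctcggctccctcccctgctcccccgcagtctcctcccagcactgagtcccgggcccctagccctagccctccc
Col3a1: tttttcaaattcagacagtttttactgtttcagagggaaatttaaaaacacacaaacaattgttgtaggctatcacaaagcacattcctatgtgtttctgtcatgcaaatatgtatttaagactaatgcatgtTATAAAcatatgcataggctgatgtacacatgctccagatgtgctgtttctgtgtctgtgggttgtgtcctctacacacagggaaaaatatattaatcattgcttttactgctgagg
Col6a1: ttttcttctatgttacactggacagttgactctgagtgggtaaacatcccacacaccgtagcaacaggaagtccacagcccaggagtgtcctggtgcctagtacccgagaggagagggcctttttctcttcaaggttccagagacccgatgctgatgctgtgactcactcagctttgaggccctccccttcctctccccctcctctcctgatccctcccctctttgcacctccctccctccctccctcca
Col11a1: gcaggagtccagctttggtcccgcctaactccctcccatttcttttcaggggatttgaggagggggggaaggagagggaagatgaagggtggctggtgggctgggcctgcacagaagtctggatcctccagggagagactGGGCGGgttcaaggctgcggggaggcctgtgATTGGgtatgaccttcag
Col1a2 held the CCAAT box word beginning 109 bases before the start and the GC box word beginning 205 and 188 bases before it. Col3a1 held only the TATA box word, 117 bases before its annotated start, and Col6a1 held none of the 3 motifs. Col11a1 held the GC box word 49 bases before the start and the CCAAT box word on the opposite strand, 18 bases before it. These words are common: among 32851 RefSeq promoter windows of 250 bases, 12.4% held the TATA box word, 33.8% the CCAAT box word and 32.7% the GC box word. Of the 38 collagen genes 31 had such a window, of which 5, 12 and 18 held the motifs. Col1a2 and Col3a1 thus shared none of these words in the bases shown. A match is a string of letters and shows no binding.

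The log2 level of Cd3e, a chain of the T-cell receptor complex, averaged 11.66 ± 0.14 over the Vav-SB tumours and 11.44 ± 0.24 over the CD4-SB tumours (SD, n = 7 each). No tumour lay below 11.07 for Cd3e, but the lowest CD4-SB tumours were at 8.16 for Thy1, 7.63 for Cd247 and 7.44 for Cd5, the last near the median of all probe sets. The models also differed in the mean level of several marker lists, each tested by a two-sided exact permutation test over 3432 splits of the tumours. These lists were chosen with earlier results of these data known. T-cell markers (7 of 8 measured) were 0.49 log2 units higher in Vav-SB (exact p = 0.00117). Fibroblast markers (13 of 14) ran from 6.98 to 7.91 in Vav-SB and from 7.18 to 8.57 in CD4-SB, a difference of -0.54 (exact p = 0.0163). Its members did not move as one: 4 of the 13 passed as lower in Vav-SB, but 4 differences were positive, and Fbln1, a matrix glycoprotein, was 2.31-fold higher in Vav-SB without overlap (adjusted p = 0.000154, limma). Pericyte and smooth muscle markers (8 of 8) ran from 6.79 to 7.38 and from 7.03 to 8.40 (-0.42, exact p = 0.0146), and myeloid markers (10 of 10) from 7.84 to 8.84 and from 8.82 to 9.68 (-0.85, exact p = 0.00175). B-cell markers (5 of 6) differed by -0.80 (exact p = 0.0425), a call lost in 9 of 14 cases when a tumour was left out. Endothelial (-0.02, exact p = 0.888), epithelial (-0.36, p = 0.135), adipocyte (-0.27, p = 0.493) and erythroid and platelet markers (-0.05, p = 0.813) did not pass. In a bulk tumour, fewer cells of a type and less RNA per cell cannot be told apart.

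Of the collagen genes, 36 did not pass the test between the models. Type VI collagen chain Col6a1, a subunit of the beaded filaments around cells, was 1.46-fold lower in Vav-SB, and Col12a1, which decorates type I collagen fibrils, was 1.64-fold lower. They were the 2 of 38 collagen genes (5.26%) past an adjusted p of 0.05 toward lower values in Vav-SB, where 7.18% of all 15803 genes passed, and 0 passed toward higher values, against 7.28% of all genes. Both p-values come from limma with Benjamini-Hochberg adjustment over all genes, as do all adjusted p of genes here. At an unadjusted p under 0.05, 9 collagens were lower in Vav-SB and 1 was higher, against 14.4% and 13.4% of all genes. In none of the 38 did the ranges of the models separate, as they did in 4.04% of all genes (1.53% with Vav-SB lower). The differences were negative in 20 and positive in 18 genes, with a median of -0.01 against 0.00 over all genes. The median SD within a model was 0.20 for the collagens and 0.24 for all genes. Collagen levels average more probe sets, a median of 40 per gene against 9 over all genes. Averaging over more probe sets can lower an SD, so these values are not alike.

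**Figure D1:**
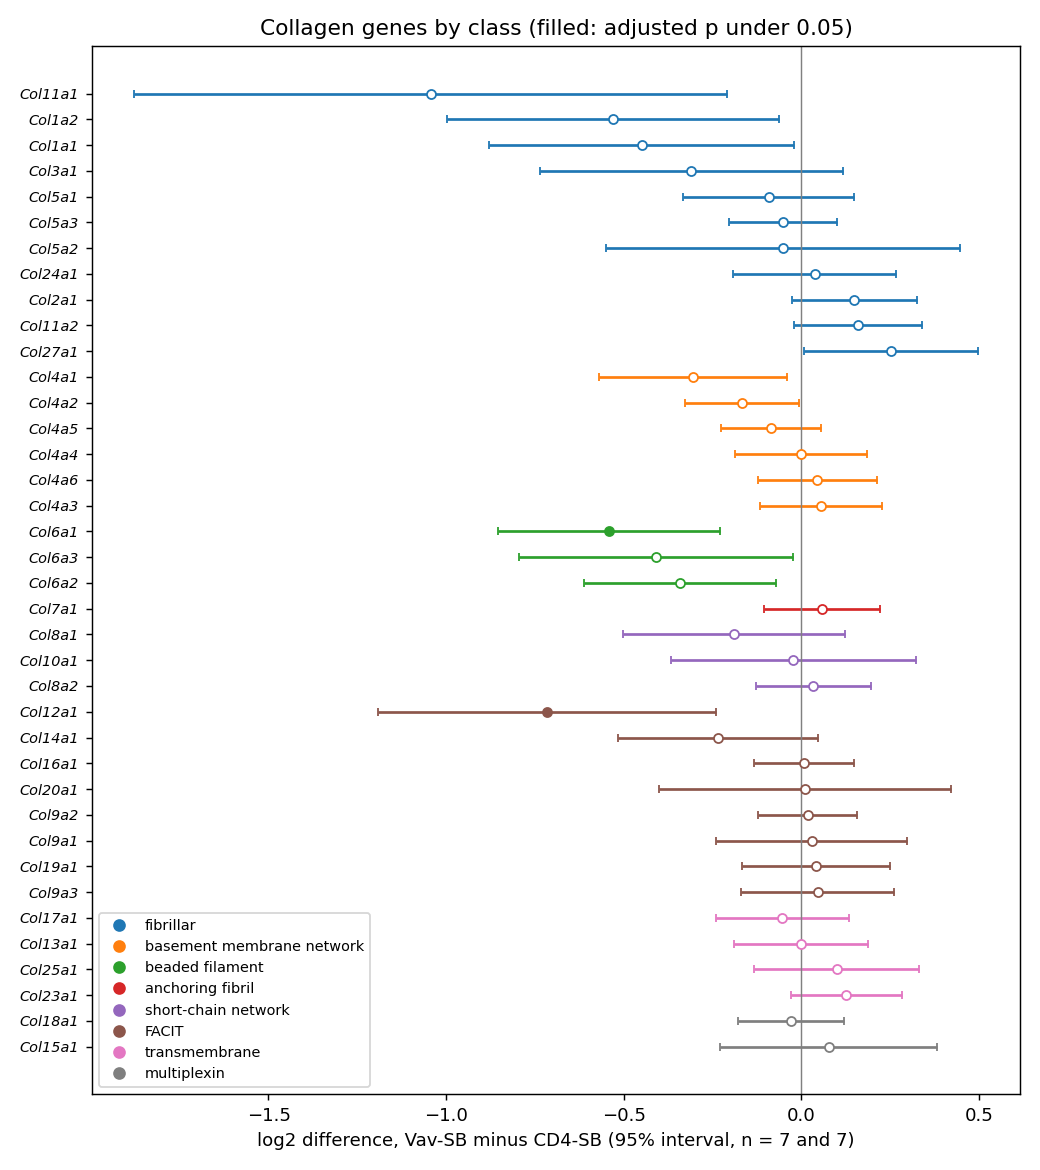
Log2 difference of each of the 38 collagen genes, Vav-SB minus CD4-SB (horizontal axis), with its 95% interval from limma, grouped and coloured by structural class; n = 7 tumours per model. Only Col6a1 and Col12a1 are filled (adjusted p under 0.05); Col11a1 lies farthest to the left but has the widest interval, from -1.88 to -0.21.

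The count of called collagens depended on single tumours. It was 6 without CD4-SB replicate 3 (Col6a1, Col6a2, Col6a3, Col1a1, Col1a2 and Col11a1, all lower in Vav-SB) and 4 without Vav-SB replicate 3 (Col6a1, Col12a1 and Col6a2 lower, Col27a1 higher). It was 0 without Vav-SB replicate 2 and 1, Col6a1, without any one of CD4-SB replicates 1, 4, 5 and 7 and Vav-SB replicates 1, 5, 6 and 7. CD4-SB replicate 3 had the lowest level of the CD4-SB tumours for Col1a1, Col1a2, Col3a1, Col6a2, Col6a3 and Col11a1. Its mean level of 2 Y-linked genes was 9.26, against 4.45 to 4.70 in the other CD4-SB tumours. In Vav-SB that level was 9.28 to 9.49 in replicates 4, 5 and 6 and 4.53 to 4.62 in the others. With it as a covariate 1 collagen passed, and the part of sex in the calls was not tested further.

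The 3 type VI chains that the naming rule takes were all lower on average in Vav-SB, and the difference of Col6a1 passed the test. Col6a6, a further type VI chain outside the rule, did not pass, with the small difference given at the start. Type VI collagen is assembled from alpha-1, alpha-2 and alpha-3 chains and forms fine filaments that link cells to the surrounding fibrils. Col6a1 levels in Vav-SB had a lowest, median and highest value of 6.58, 6.80 and 7.53, and those in CD4-SB of 7.06, 7.31 and 7.76. The models overlapped through Vav-SB replicate 3 alone, and the other 6 Vav-SB tumours lay below every CD4-SB tumour. The difference was -0.54 ± 0.15 (SE, adjusted p = 0.0230). Of its 25 probe sets, 22 had a negative difference and 5 passed the test on single probe sets, all lower.

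Col6a2, the alpha-2 chain, had levels of 7.30, 7.37 and 7.84 in Vav-SB and 7.38, 7.73 and 8.31 in CD4-SB (lowest, median, highest). Again Vav-SB replicate 3 was the highest of its model. The difference was -0.34 ± 0.13 (adjusted p = 0.0868) and did not pass; it did with array weights (-0.37, adjusted p = 0.0258). Col6a3, the large alpha-3 chain, stayed between 6.54 and 6.78 in Vav-SB, with a median of 6.66, but spread from 6.25 to 7.79 in CD4-SB, with a median of 7.10. Its lowest and its highest tumour were thus both CD4-SB (-0.41 ± 0.18, adjusted p = 0.153).

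In both Col6a1 and the fibroblast markers, Vav-SB replicate 3 stood above the other Vav-SB tumours, at 7.53 and 7.91. With the fibroblast marker level as a covariate the difference of Col6a1 was -0.21 (adjusted p = 0.396), that of Col6a2 -0.185 (0.541) and that of Col6a3 -0.23 (0.612). This covariate itself differed between the models, and with it 714 of all genes passed in place of 2284. A call lost with it, here or below, is thus shared by most genes called. The part of fibroblast content was not tested. The Col6a1 call was also lost with the median over probe sets in place of the mean (adjusted p = 0.0925), with the Y-linked gene level as a covariate (0.0519) and without Vav-SB replicate 2 (0.0503).

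Among the 8 measured collagens that attach to fibrils or carry interrupted helices (FACIT class), Col12a1 alone passed the test. Type XII collagen lies on the surface of type I fibrils in tissues under strain. Its levels were 6.35, 6.65 and 7.02 in Vav-SB (lowest, median, highest) and 6.66, 7.17 and 8.31 in CD4-SB. In CD4-SB, 5 tumours lay above every Vav-SB tumour, and replicates 2 and 6, at 6.80 and 6.66, lay within the Vav-SB range. The difference was -0.72 ± 0.22 (adjusted p = 0.0431). Of its 64 probe sets, 61 had a negative difference and 14 passed as lower, the highest count of any collagen.

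The Col12a1 call was close to the threshold. It was lost without any one of CD4-SB replicates 1, 3, 4, 5 and 7 and Vav-SB replicates 1, 2, 5, 6 and 7, with adjusted p between 0.0524 and 0.0867 and differences between -0.56 and -0.76. It was also lost with the median over probe sets (-0.69, adjusted p = 0.0884) and with the fibroblast marker level as a covariate (-0.49, adjusted p = 0.358). Col14a1, a related molecule on fibrils, had a difference of -0.24 (adjusted p = 0.269). The other 6 genes of the class, the type IX chains Col9a1, Col9a2 and Col9a3 with Col16a1, Col19a1 and Col20a1, differed by 0.01 to 0.05.

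None of the 11 fibrillar collagens passed the test. The chains of type I collagen, the main fibril of connective tissue, spread more widely among CD4-SB tumours than among Vav-SB tumours, with an SD of 0.53 against 0.21 for Col1a1; the spreads were not tested against each other. Col1a1, its alpha-1 chain, was at 7.52, 7.80 and 8.10 in Vav-SB (lowest, median, highest) and at 7.44, 8.15 and 9.04 in CD4-SB (-0.45 ± 0.20, adjusted p = 0.159). Col1a2, the alpha-2 chain, was at 7.39, 7.51 and 7.89 and at 7.38, 7.97 and 9.23 (-0.53 ± 0.22, adjusted p = 0.126). Col3a1, the type III chain that joins type I in soft tissue, was at 7.43, 7.63 and 7.93 and at 7.26, 7.84 and 8.88 (-0.31 ± 0.20, adjusted p = 0.349). In all 3 genes the lowest and the highest of the 14 tumours were both CD4-SB, replicate 3 and replicate 1, so the Vav-SB range lay inside the CD4-SB range. CD4-SB replicate 1 also had the highest fibroblast marker level, 8.57, and the highest myeloid marker level, 9.68, of all tumours, whereas CD4-SB replicate 3 had the next highest fibroblast marker level, 8.01, beside the lowest type I and III levels. With that marker level as a covariate the differences of Col1a1, Col1a2 and Col3a1 were -0.20, -0.18 and -0.01 (adjusted p = 0.692, 0.736 and 0.988).

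**Figure D2:**
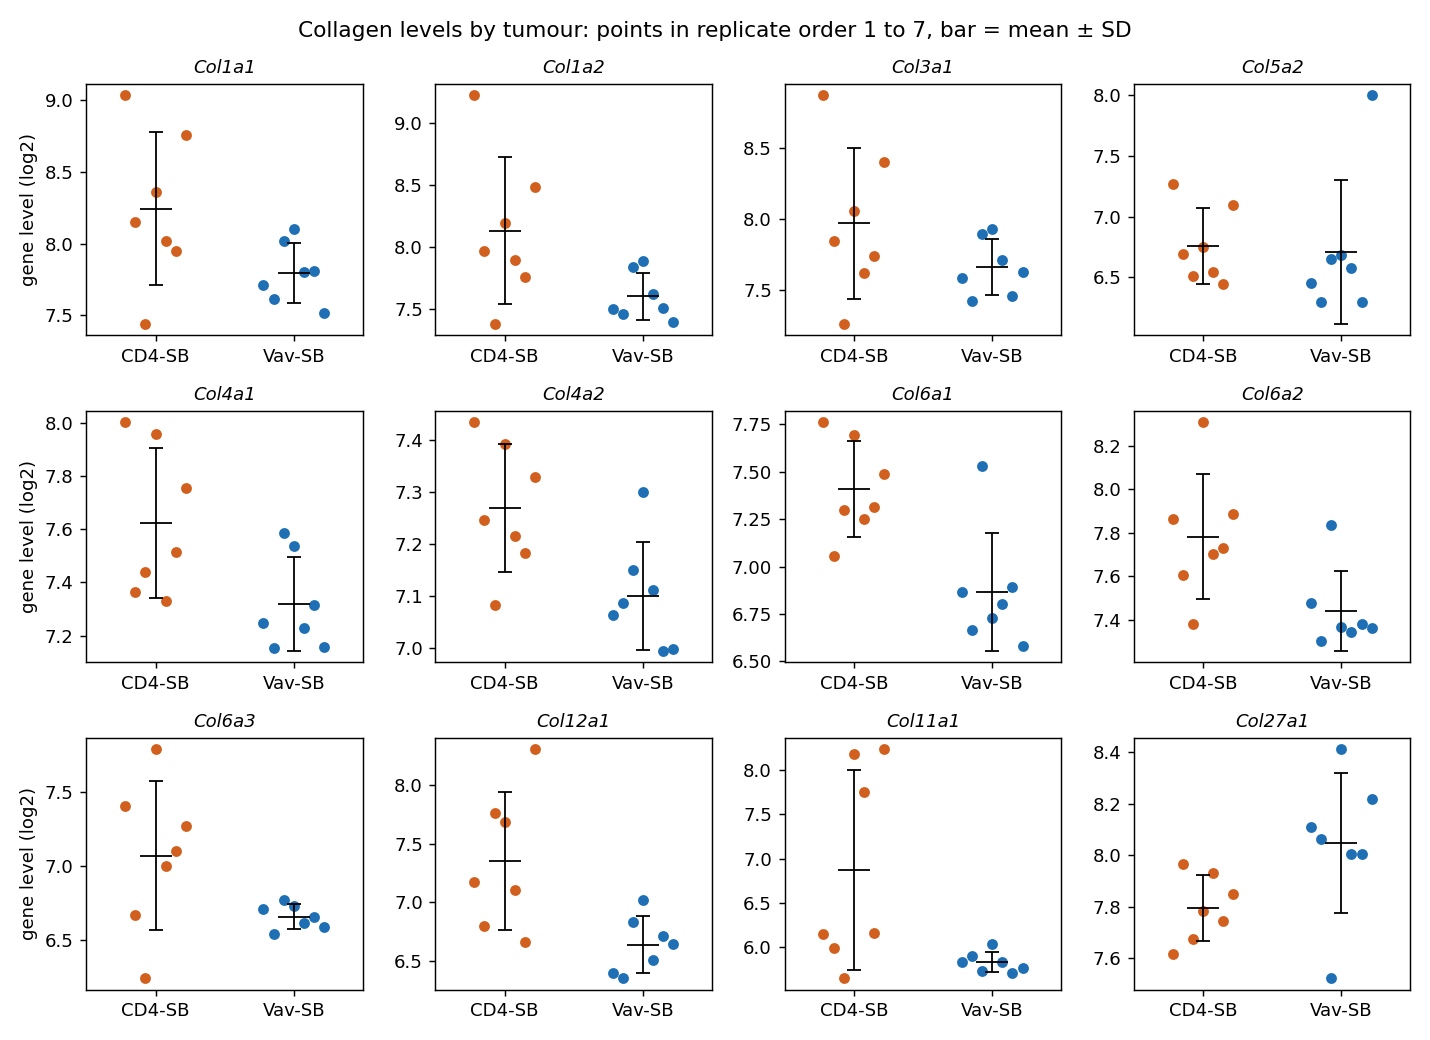
Gene level (log2, vertical axis of each panel) of the 12 collagen genes described singly, one point per tumour in replicate order 1 to 7 from left to right within each model, with the mean and SD as black bars. The 7 CD4-SB tumours spread more widely than the 7 Vav-SB tumours for Col1a1, Col1a2, Col3a1, Col6a3, Col12a1 and Col11a1, and for Col5a2 the Vav-SB tumour at 8.0 stands alone.

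Col5a2 encodes a type V chain, which sits inside type I fibrils and sets their diameter. Its levels were 6.29, 6.58 and 8.0 in Vav-SB and 6.45, 6.69 and 7.27 in CD4-SB (lowest, median, highest). Vav-SB replicate 7 made the top value, and the next Vav-SB tumour was at 6.69. This tumour was the highest Vav-SB tumour in 39 of the 45 probe sets of the gene and the highest of all 14 tumours in 35. It was not high for Col3a1 (7.63) or for Col5a1, the partner chain (6.96). The mean difference between the models was -0.05 ± 0.23 (adjusted p = 0.919), and its sign turned when 1 of 4 tumours was left out.

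Over all its probe sets, Col11a1 had the largest difference of the 38 genes and the widest span. It encodes the alpha-1 chain of type XI collagen, a core of cartilage fibrils that fibroblasts of several tumour types also make. In Vav-SB its levels were 5.71, 5.83 and 6.03 (lowest, median, highest). In CD4-SB, replicate 7 was at 8.24, replicate 4 at 8.19 and replicate 5 at 7.75, and the other 4 tumours lay between 5.64 and 6.15. So 3 CD4-SB tumours stood apart above the remaining 11, and 1 CD4-SB tumour was the lowest of all. The difference of the means, -1.04 ± 0.39, did not pass (adjusted p = 0.0908); it was past the threshold without CD4-SB replicate 3 (-1.25, adjusted p = 0.0399) and with array weights (-1.07, adjusted p = 0.0333). With only bright probe sets, those whose mean over the tumours lay above the median of all probe sets, it was -0.146 (adjusted p = 0.493). Replicates 5 and 7 share a title number with replicate 6, which was at 6.15, and replicate 4 has its own.

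At the level of probe sets the same 3 tumours separated by far more. Of the 44 Col11a1 probe sets, 16 spanned more than 4 log2 units over the tumours, and in all 16 the 3 highest tumours were these. In 21 of 44 probe sets they were the 3 highest, and 17 probe sets spanned less than 2. The probe set of widest span, 5029407, was at 11.61, 11.14 and 12.02 in CD4-SB replicates 4, 5 and 7. In the other CD4-SB tumours it was between 4.23 and 7.60, and in Vav-SB between 4.09 and 5.37. The gene mean therefore averages probe sets that followed these tumours with others that hardly varied, and the 2.59 log2 span of the gene mean compares with 7.92 for this probe set. Only 3 of the 44 probe sets passed the test between the models, all lower in Vav-SB. Fibroblast markers in the 3 tumours were at 7.94, 7.78 and 7.77, below CD4-SB replicates 1 and 3.

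**Figure D3:**
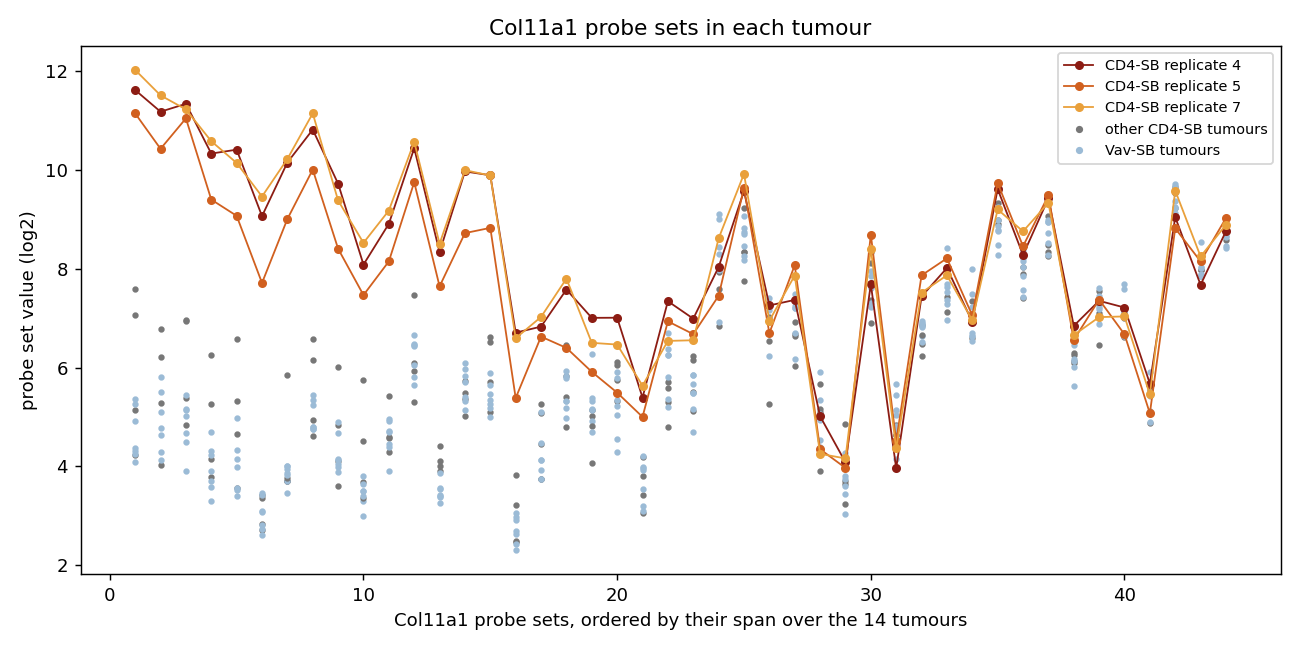
Values (log2, vertical axis) of the 44 Col11a1 probe sets in each tumour, ordered from left to right by their span over the 14 tumours. CD4-SB replicates 4, 5 and 7 (connected points) lie above all other tumours (grey, other CD4-SB; blue, Vav-SB) in the 16 probe sets that span more than 4 log2 units, and merge with them on the right.

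The partner chains of Col11a1 did not separate these tumours. Col11a2, the alpha-2 chain of type XI, ran only from 7.12 to 7.53 in CD4-SB and from 7.36 to 7.75 in Vav-SB (0.16 ± 0.08, adjusted p = 0.243). Col2a1, the cartilage collagen whose product also serves as the third chain of type XI, ran from 7.22 to 7.63 and from 7.43 to 7.73 (0.15 ± 0.08, adjusted p = 0.266). After the mean of each model was subtracted, Col11a1 correlated with Col11a2 at r = 0.37 and rho = 0.415 (adjusted permutation p = 0.368 and 0.27) and with Col2a1 at r = 0.137 and rho = 0.257 (0.708 and 0.418). Within the models, r was 0.925 and 0.92 over the Vav-SB tumours, where Col11a1 spanned only 5.71 to 6.03, and 0.402 and 0.104 over the CD4-SB tumours; the difference between the models was not tested.

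Col27a1, a fibrillar collagen of cartilage, was the only member with an unadjusted p under 0.05 and a higher mean in Vav-SB. Its levels were 7.52, 8.06 and 8.41 in Vav-SB and 7.62, 7.78 and 7.97 in CD4-SB. In Vav-SB, 6 tumours lay above every CD4-SB tumour, and replicate 3 was the lowest of all 14. The difference was 0.25 ± 0.11 (adjusted p = 0.166), and 0.34 without Vav-SB replicate 3 (adjusted p = 0.0212). With the fibroblast marker level as a covariate it was 0.0489 (adjusted p = 0.862). Of its 44 probe sets 5 passed as higher. Of the fibrillar genes not yet described, Col5a1, Col5a3 and Col24a1 differed by -0.09, -0.05 and 0.04.

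The 6 basement membrane genes encode type IV chains, which form the sheet under epithelia and around vessels, and none passed the test. Col4a1 and Col4a2, the chains of the common type IV trimer, start 21 bases apart on opposite strands of RefSeq's annotation, and both were lower on average in Vav-SB. Col4a1 was at 7.15, 7.25 and 7.58 in Vav-SB and at 7.33, 7.52 and 8.0 in CD4-SB (-0.31 ± 0.12, adjusted p = 0.118). Col4a2 was at 6.99, 7.09 and 7.30 and at 7.08, 7.25 and 7.43 (-0.17 ± 0.08, adjusted p = 0.157). With the fibroblast marker level as a covariate the difference of Col4a1 was -0.07 (adjusted p = 0.81), and with the median over probe sets that of Col4a2 was -0.07 (0.678). The Vav-SB tumours that reached into the CD4-SB range of Col4a1 were replicates 3 and 4, and 5 of 7 lay below every CD4-SB tumour. The chains of restricted tissues, Col4a3, Col4a4, Col4a5 and Col4a6, differed by -0.09 to 0.06, and their adjusted p ran from 0.452 to 0.994.

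The remaining 10 genes showed no difference that passed. Col7a1, which anchors the epidermis, differed by 0.06 (95% interval -0.11 to 0.22). The short-chain collagens Col8a1, Col8a2 and Col10a1 differed by -0.19, 0.03 and -0.02, with Col10a1 read by only 2 probe sets. The transmembrane collagens Col13a1, Col17a1, Col23a1 and Col25a1 differed by 0.00, -0.05, 0.13 and 0.10. Col15a1 and Col18a1, which lie in vessel basement membranes, differed by 0.08 and -0.03. Col15a1 was highest, at 7.88, in CD4-SB replicate 1, the tumour with the highest type I and III levels. The 95% intervals of these 10 genes reached from -0.50 (Col8a1) to 0.38 (Col15a1).

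Single probe sets gave a more mixed picture than the gene means. Of the 1365 collagen probe sets, 36 passed as lower in Vav-SB (2.64%, in 11 genes) and 16 as higher (1.17%, in 11 genes), against 3.99% and 4.53% of all probe sets with 1 gene. A test for probe sets that shift differently from the rest of their gene (limma's diffSplice) called 17 of 37 collagens (45.9%), against 10.6% of all genes tested. Collagen genes have many probe sets, a median of 40 against 9 over all genes; among genes with at least 30 probe sets, 15 of 25 collagens and 22% of all such genes were called. The test treats the probe sets of a gene as independent, though all were read in the same 14 tumours. Col11a1 was called (adjusted p = 4.44e-11, diffSplice), while 3 of its 44 probe sets passed singly. The shares called are therefore given as a description.

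The 3 collagen probe sets of lowest adjusted p were higher in Vav-SB, those of Col3a1 and Col17a1 with a sign opposite to the gene mean. In Col3a1, where 37 of 44 probe sets had a negative difference, probe set 5192971 was at 9.74 to 10.10 in Vav-SB and at 7.55 to 8.92 in CD4-SB, with no overlap (1.83 ± 0.18, adjusted p = 1.53e-05, limma over all probe sets). In Col17a1, a transmembrane collagen of skin, probe set 4340567 was at 9.78 to 10.64 and at 8.35 to 9.03 (1.58 ± 0.16, adjusted p = 1.98e-05). In Col7a1, where 36 of 76 probe sets had a negative difference, probe set 4685329 was at 7.56 to 8.77 and at 5.06 to 6.85 (2.39 ± 0.27, adjusted p = 8.26e-05). Each of these 3 separated the models completely while the gene mean did not pass. Other probe sets separated too, in both directions. Probe set 4884839 of Col4a1, also opposite to its gene mean, was at 8.32 to 8.77 in Vav-SB and at 7.46 to 8.28 in CD4-SB. Probe set 4647840 of Col6a3 was lower in Vav-SB, at 6.51 to 6.97 against 7.21 to 7.83. The positions of these probe sets in the genes were not used here. Whether they read the collagen transcript or another one was not tested.

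Several pairs of collagens varied together across the tumours. Pairs of other genes were not correlated for comparison, so whether collagens covary more than other genes was not tested. Type I and type III chains moved almost as one across the 14 tumours: with model means subtracted, Col1a1 and Col1a2 correlated at r = 0.968 and rho = 0.987 (permutation p = 1e-05 for both, the smallest that the resamples can give; adjusted over 22 relations 0.00011 and 0.00022). Col1a2 and Col3a1 correlated at r = 0.973 and rho = 0.912 (adjusted permutation p = 0.00011 and 0.00066). Leaving out the 2 tumours farthest from the median, CD4-SB replicates 1 and 3, left r at 0.969 and 0.921. Taken within the models, the first pair had r = 0.965 over the Vav-SB tumours and 0.971 over the CD4-SB tumours, and the second pair 0.882 and 0.984. The labels' title numbers mean that some of the 14 tumours may not be independent.

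Of the 13 pairs of collagens tested, 9 passed by both r and rho. Col6a2 and Col6a3 correlated at r = 0.864 and rho = 0.938 (adjusted permutation p = 0.000385 and 0.00022), and Col6a1 with Col6a2 at r = 0.775 and rho = 0.82 (0.00814 and 0.00378). Col4a1 and Col4a2 correlated at r = 0.794 and rho = 0.688 (adjusted permutation p = 0.00635 and 0.026), and Col4a3 and Col4a4 at r = 0.913 and rho = 0.916 (0.000385 and 0.000513). Col3a1 and Col5a2 correlated at r = 0.469 and rho = 0.758 (adjusted permutation p = 0.0388 and 0.00449), with r = 0.939 in CD4-SB and 0.19 in Vav-SB, the model that holds the Col5a2 tumour at 8.0; the difference between these was not tested. Some partner chains did not pass: Col5a1 and Col5a2 correlated at r = 0.274 and rho = 0.495 (adjusted permutation p = 0.368 and 0.115), and Col4a5 and Col4a6 at r = 0.513 and rho = 0.552 (0.118 and 0.0888).

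Over all 703 pairs of collagens the median r was 0.263. Col1a1, Col1a2, Col3a1, Col4a1, Col4a2 and Col5a1 had pairwise r from 0.775 to 0.973. A separate set, Col2a1, Col4a3, Col4a4, Col8a2, Col9a1, Col9a3 and Col11a2, had r from 0.714 to 0.937 among themselves, and the median r between the sets was -0.05. Both sets were picked after their correlations were seen, so these values only describe them. Genes of the second set span little, between 0.39 and 0.86 log2 units over the 14 tumours. Of these genes only Col2a1 and Col9a1 were set against the mean of 830 olfactory receptor genes, receptors of nasal sensory neurons: r was 0.74 for Col2a1 and 0.747 for Col9a1, with rho of 0.736 and 0.71 (adjusted permutation p = 0.00814, 0.00418, 0.00846 and 0.00846). That list too was chosen after the pattern was seen, and its part in the covariation was not tested. Col27a1 correlated with it at r = 0.57 and rho = 0.622 (adjusted permutation p = 0.0237 and 0.0424).

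**Figure D4:**
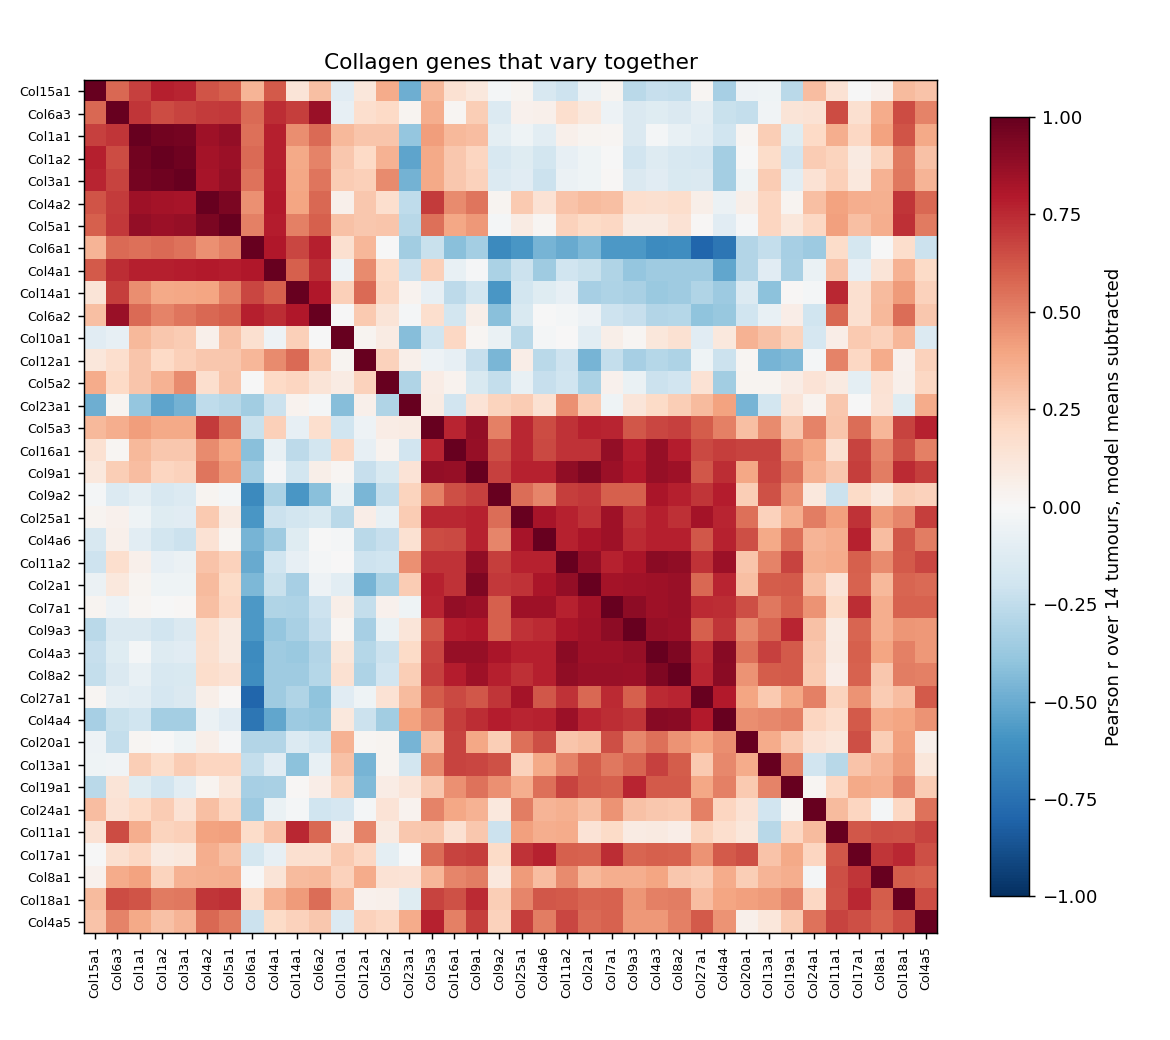
Pearson correlation (colour, from -1 to 1) between each pair of the 38 collagen genes over the 14 tumours, after the mean of each model was subtracted, with genes ordered by average-linkage clustering. One block holds Col1a1, Col1a2, Col3a1, Col4a1, Col4a2 and Col5a1, another holds Col2a1, Col9a1, Col9a3, Col11a2, Col4a3, Col4a4 and Col8a2, and r over all pairs runs from -0.793 to 0.973.

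The genes outside the family that varied most like the mean of Col1a1, Col1a2 and Col3a1 were Fbn2 (r = 0.921), Stab1 (0.909), Loxl2 (0.907), Fstl1 (0.887), Fbn1 (0.863), Bmp1 (0.857), Naglu (0.853), Pdgfrl (0.846), Ift122 (0.84) and Rab38 (0.839), over 14 tumours with model means subtracted. Fbn1 and Fbn2 encode the fibrillins of elastic microfibrils, Loxl2 a crosslinking oxidase and Bmp1 the protease that trims the C-terminal end of fibrillar procollagens. The roles of the other genes named are not described here, and a function common to the 10 was not tested. These 10 are the top of a ranking of all genes, so their correlations are given as a description.

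Of 6 collagens set against the fibroblast markers, Col6a1 alone passed, by r and not by rho. With model means subtracted, the mean level of the markers correlated with Col6a1 at r = 0.796 and rho = 0.565 (adjusted permutation p = 0.00635 and 0.0806), and r was 0.514 without the 2 tumours farthest from the median, CD4-SB replicate 1 and Vav-SB replicate 3. With Col1a2 the values were r = 0.536 and rho = 0.288 (0.151 and 0.399), and r was -0.09 without those tumours, so that relation rests on them. With Col1a1 they were r = 0.412 and rho = 0.297 (adjusted permutation p = 0.279 and 0.399) and with Col3a1 r = 0.504 and rho = 0.314 (0.165 and 0.388). Without the same 2 tumours r was -0.126 for Col1a1 and -0.06 for Col3a1, so these relations rest on them too. With Col12a1 they were r = 0.347 and rho = 0.565 (adjusted permutation p = 0.368 and 0.0911), and with Col11a1 r = -0.03 and rho = -0.13 (0.935 and 0.697). The list holds no collagen, but Dcn, Fap and Fstl1 in it also appear among the collagen partners given here.

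**Figure D5:**
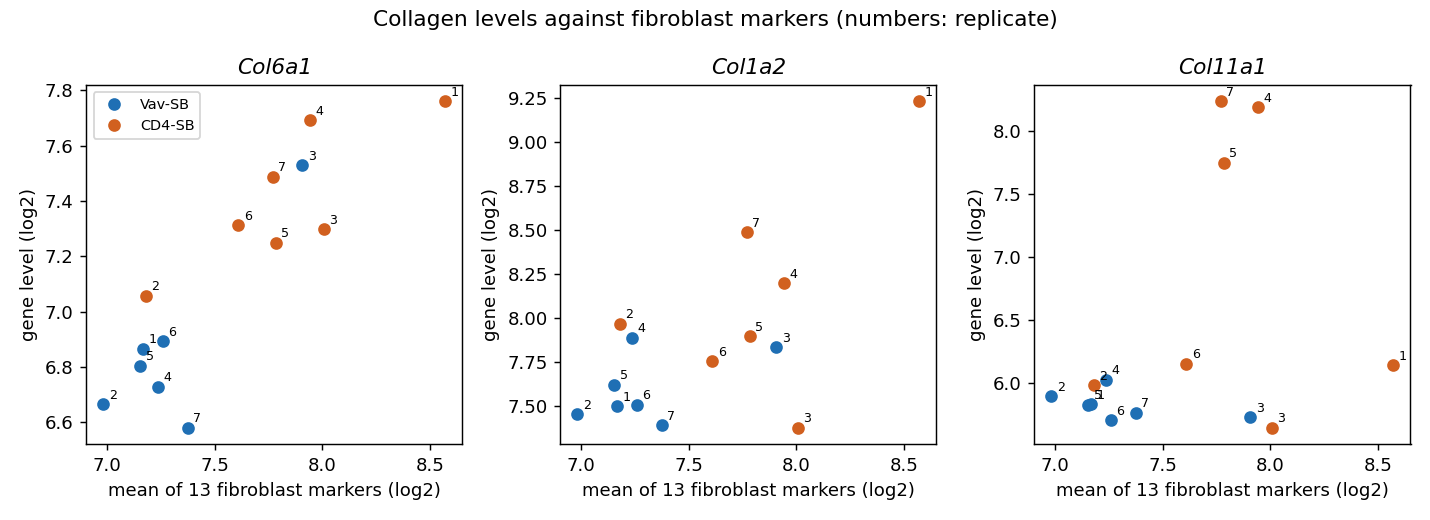
Gene level of Col6a1, Col1a2 and Col11a1 (log2, vertical axes) against the mean level of 13 fibroblast markers (log2, horizontal axis); each point is a tumour, coloured by model and numbered by replicate. In CD4-SB, Col6a1 is higher in tumours with higher markers (r = 0.823). In Vav-SB (r = 0.836) replicate 3 is highest in both and lies among the CD4-SB tumours. Vav-SB replicate 7, next in markers at 7.37, has the lowest Col6a1 at 6.58. For Col11a1, CD4-SB replicates 4, 5 and 7 stand above tumours of like marker level.

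Among the genes that build, bind, cut and sense collagen, most calls were lower in Vav-SB. Of 89 genes in 6 lists, 76 were measured; 18 (23.7%) were lower in Vav-SB and 3 (3.95%) higher, where 7.18% and 7.28% of all genes passed, and 62 of 76 differences were negative, with a median of -0.36. No test compared the lists with other genes, and they too were chosen with earlier results of these data known. With the fibroblast marker level as a covariate 3 of the 76 genes passed, Ppib and Tgfb1 lower and Tgfbr1 higher. At that setting 714 of all 15803 genes passed. The marker level itself differed between the models, and its list shares Dcn, Fap and Lum with these lists. The part of fibroblast content in the lower count was not tested. The count was 12 without Vav-SB replicate 2 and 13 without Vav-SB replicate 1 or replicate 5.

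The proteins that bind collagen in the matrix held the most calls: 8 of 15 measured genes were lower in Vav-SB (53.3%), against 7.18% of all genes. In this list 0 were higher and all 15 differences were negative. Bgn, the proteoglycan biglycan, was at 7.79, 8.36 and 8.89 in Vav-SB (lowest, median, highest) and at 8.60, 9.28 and 10.55 in CD4-SB (-1.02 ± 0.25, adjusted p = 0.0134). Sparc, a secreted protein that binds fibrillar collagen, was at 9.21, 10.21 and 11.14 and at 10.64, 11.05 and 12.17 (-1.10 ± 0.29, adjusted p = 0.0193). Their models overlapped, whereas those of Nid2, a nidogen that ties type IV collagen to laminin, did not: its highest Vav-SB tumour was at 6.94 and its lowest CD4-SB tumour at 6.96 (-0.31 ± 0.09, adjusted p = 0.0261). The Nid2 call was lost with only bright probe sets (-0.135, adjusted p = 0.326), with the median over probe sets (0.0649), with 1 tumour per title number (0.0626) and without Vav-SB replicate 2 (0.0572) or replicate 7 (0.0517). Lamc1, a laminin chain of basement membranes, differed by -0.64 ± 0.14 (adjusted p = 0.00851). The other calls were Fbn1, Dcn, Nid1 and Thbs1, with differences of -0.83, -1.56, -0.56 and -0.47; when each of the 14 tumours was left out in turn they passed 8, 7, 6 and 3 times. Fbn1 did not pass without CD4-SB replicate 7 or Vav-SB replicate 1, 2, 4, 5 or 7, Dcn without CD4-SB replicate 1, 3 or 5 or Vav-SB replicate 1, 2, 4 or 5, and Nid1 without CD4-SB replicate 1, 3, 5 or 7 or Vav-SB replicate 1, 2, 5 or 7, while Thbs1 passed only without CD4-SB replicate 1 or 6 or Vav-SB replicate 4.

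Of 13 measured genes for folding and modification, 3 were lower (23.1%) and 1 higher (7.69%) in Vav-SB, against 7.18% and 7.28% of all genes. Ppib, an endoplasmic reticulum isomerase that speeds helix folding, was at 10.26, 10.52 and 10.81 in Vav-SB and at 10.69, 11.05 and 11.49 in CD4-SB (-0.54 ± 0.13, adjusted p = 0.0104). Crtap, its partner in the prolyl 3-hydroxylation complex, differed by -0.50 ± 0.12 (adjusted p = 0.0126), and Colgalt1, which adds galactose to hydroxylysine, by -0.34 ± 0.10 (adjusted p = 0.0364). Colgalt1 passed in only 5 of the 14 fits with a tumour left out, those without CD4-SB replicate 2, 3, 5 or 7 or Vav-SB replicate 3, and its call was lost with the median over probe sets (adjusted p = 0.149), with 1 tumour per title number (0.053) and with the Y-linked level as a covariate (0.0869). Plod2, a lysyl hydroxylase that prepares crosslinks, went the other way, at 8.26, 8.79 and 9.55 in Vav-SB and 6.62, 7.87 and 8.63 in CD4-SB (1.05 ± 0.30, adjusted p = 0.0316); it passed in 9 of the 14 fits with a tumour left out, and not without CD4-SB replicate 3 or Vav-SB replicate 1, 2, 4 or 5. P4ha1, the catalytic subunit of prolyl 4-hydroxylase, did not pass (0.32 ± 0.16, adjusted p = 0.205). Serpinh1 and Lox were not analysed here.

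Among 10 genes for trimming and crosslinking, 1 was lower in Vav-SB (10%, against 7.18% of all genes). This was Adamts2, the protease that removes the N-terminal end of procollagens. It was at 6.81, 6.89 and 6.98 in Vav-SB and at 6.98, 7.57 and 8.54 in CD4-SB, without overlap (-0.72 ± 0.18, adjusted p = 0.0145). With 1 tumour per title number the difference of Adamts2 was the same and its adjusted p was 0.0521. Of 17 genes for breakdown, 16 had a negative difference and 1 passed as lower (5.88%, against 7.18% of all genes). The call was Fap, a surface protease of activated fibroblasts (-0.77 ± 0.16, adjusted p = 0.00506). Its levels were low, with means of 4.93 in Vav-SB and 5.70 in CD4-SB. The olfactory receptor genes averaged 4.93 and 4.92, and the filters on dim genes and on dim probe sets both left Fap out. Of 8 receptors, Lair1, an inhibitory collagen receptor of leukocytes, passed as lower (-0.80 ± 0.15, adjusted p = 0.00291). It made up 12.5% of the list, against 7.18% of all genes. Itgb1, the beta subunit of the collagen-binding integrins (-0.54 ± 0.20, adjusted p = 0.0896), and Ddr2, a receptor kinase for fibrillar collagen (-0.37 ± 0.14, adjusted p = 0.0848), did not; with 1 tumour per title number both passed (-0.67, adjusted p = 0.0495, and -0.52, adjusted p = 0.0484).

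TGF-beta is a main inducer of collagen transcription, and 6 of its 13 measured genes passed, 4 lower (30.8%) and 2 higher (15.4%) in Vav-SB. Of all genes, 7.18% passed as lower and 7.28% as higher. The ligand Tgfb1 was at 7.47, 7.68 and 8.05 in Vav-SB and at 8.02, 8.59 and 9.02 in CD4-SB (-0.81 ± 0.14, adjusted p = 0.00202). The receptor chains went opposite ways: Tgfbr2 differed by -0.62 ± 0.13 (adjusted p = 0.00583) and Tgfbr1 by 0.73 ± 0.22 (adjusted p = 0.0359). The target genes Tgfbi (-1.51 ± 0.32, adjusted p = 0.00657) and Smad7, an inhibitor of the pathway (-0.39 ± 0.09, adjusted p = 0.00832), were lower, and the signal carrier Smad4 was higher (0.24 ± 0.07, adjusted p = 0.0405). With a tumour left out Tgfbr1 passed in 5 of 14 fits, those without CD4-SB replicate 1, 3 or 7 or Vav-SB replicate 3 or 6, and Smad4 in 4, those without CD4-SB replicate 2, 3 or 5 or Vav-SB replicate 7. With 1 tumour per title number neither passed (adjusted p = 0.153 and 0.146). The same held with the median over probe sets (adjusted p = 0.122 and 0.428) and with the Y-linked level as a covariate (0.0689 and 0.0971). Smad4 also did not pass with only bright probe sets (adjusted p = 0.0729) or with the fibroblast marker level as a covariate (0.167). Smad7 did not pass with only bright probe sets (-0.27, adjusted p = 0.0705). Lymphocytes and myeloid cells express several of these genes too, and the part of the lower myeloid and higher T-cell marker levels of Vav-SB in them was not tested.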

How the data were processed

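The deposited table holds log2 values of the authors, 1 column per tumour and 1 row per probe set, and the submitters' processing notes name RMA and Partek but no version. For the background step, any filter and the log base, nothing is given in the sources used here, and the values, from 2.03 to 14.03, are taken to be log2. Per the labels' protocols the RNA was amplified from a small input, a step that need not copy all stretches of a transcript evenly. The medians of the tumours' columns differ by little, 7.46 to 7.50, and tumours with more RNA in all would not show as such. The 194293 probe sets include 179496 with 1 gene symbol, 1328 with several and 13469 with none in the platform annotation, and only the first named genes. Symbols were updated through RefSeq's GRCm38.p6 gene table (13727 current, 2014 replaced, 32 with several possible replacements, 25 left old to avoid a clash, 5 unmatched). No filter on dim genes was applied; the number of arrays limits the precision.

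Differences are Vav-SB minus CD4-SB, tested on gene means with limma 3.58.1 (lmFit and eBayes, R 4.3.3), Benjamini-Hochberg adjustment over 15803 genes and a threshold of 0.05. Probe sets were tested alike, and diffSplice took genes with 3 or more probe sets. The tests were checked on simulated data. Correlations used 100000 permutations within models. Replicates are numbered in accession order. The members follow from the form of their symbols, but this family, the lists and the tests were chosen with earlier results of these data known. Named with values are collagens past the threshold or an unadjusted p of 0.05, the type I, III, IV and VI chains Col1a1, Col1a2, Col3a1, Col4a1, Col4a2, Col6a1, Col6a2 and Col6a3, collagens with a tumour apart from its model by Dixon's test, up to 4 calls per pathway list, P4ha1, Sparc, Itgb1 and Ddr2 (the rule also lists Serpinh1 and Lox, not analysed here), and the 10 genes most like the type I and III chains; others were added after their values were seen. Alternatives were the median over probe sets, quantile normalization, filters on dim genes or probe sets, array weights, a trended prior, 1 tumour per title number, title number as a random block, covariates for Y-linked and fibroblast marker levels, and each tumour left out.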

Additional observations from a re-analysis of the deposited data

Results flagged for a closer look

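A tumour stood apart from the other 6 of its model by Dixon's test in 6 of 96 checked groups of 7, and in 3 of the 76 collagen groups; chance alone flags about 1 in 20 groups. Col5a2 was at 8.0 in Vav-SB replicate 7, where the other Vav-SB tumours lay between 6.29 and 6.69. Col6a1 was at 7.53 in Vav-SB replicate 3 (others 6.58 to 6.89), and Col6a2 at 7.84 in the same tumour (others 7.30 to 7.48). The fibroblast markers of that tumour were also apart, at 7.91 against 6.98 to 7.37 in the other Vav-SB tumours. In CD4-SB, pericyte and smooth muscle markers were at 8.40 in replicate 4 (others 7.03 to 7.40) and myeloid markers at 9.68 in replicate 1 (others 8.82 to 9.10).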

How the results depend on the processing

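No paired analysis was possible because the labels give the models no shared replicate numbers. The count of called genes went from 2284 to 714 with the fibroblast marker level as a covariate, which also moved the collagen count from 2 to 0 and that of the pathway lists from 21 to 3. The collagen count was also 0 with the median over probe sets, 4 with array weights and 1 with the Y-linked level as a covariate. It ran from 0 to 6 when each tumour was left out. Among genes above the median level (14 collagens left) it was 0 as well. Col6a1 and Col12a1 lie below that level and were not in this fit, so that 0 is no loss of their calls. Array weights gave 33 pathway genes and 79 collagen probe sets in place of 52; leaving out each tumour gave 12 to 25 and 23 to 79. Col6a1 kept its sign throughout (-0.65 to -0.21), as did Col12a1 (-0.83 to -0.49). The difference of Col5a2, never called, turned positive with the median over probe sets (0.00984), array weights (0.0035), the Y-linked (0.0411) and the fibroblast covariate (0.188), and without CD4-SB replicate 1 (0.0344) or 7 (0.00482) or Vav-SB replicate 2 (0.018) or 6 (0.018); leaving out each tumour gave -0.266 to 0.0344. Of the marker lists, the median over probe sets brought the epithelial list past the threshold (-0.485, exact permutation p = 0.0297) and turned the erythroid and platelet list to 0.0854. Leaving out each tumour gave -0.0873 to 0.057 for the endothelial, -0.17 to 0.0197 for the erythroid and platelet and -0.973 to -0.612 for the B-cell list, with 9 of 14 B-cell values no longer past 0.05. The causes were not tested. The count of collagens with a probe set apart from the rest stayed between 13 and 21 around 17. No detection values were used here, so which probe sets lay above background was not tested.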
